A study of Homo sapiens with 9 samples.

Results

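Knockdown of PIP4K2B was compared with control vector cells on glass in 6 of the 9 libraries of the series, 3 labelled sh_PIP4K2B and 3 labelled Control. The cells were hTERT_RPE1, an established human line of retinal pigment epithelium immortalised with telomerase, and all 6 libraries came from cells kept for 24 h on glass coated with fibronectin. Each sh_PIP4K2B library carried another short hairpin RNA against PIP4K2B (hairpins #1, #2 and #3), so every hairpin had 1 library and the spread within the group holds what differs between hairpins. Control cells carried the empty pLKO_1 vector, as their titles and the study's text give it, although their treatment label reads Ctrl shRNA. The other 3 libraries of the series, control vector cells on gels of 2.3 kPa (Soft), entered the fit, where they bear on the scaling, the filter on low counts and the estimate of the spread. The study states that its experiments were repeated independently, but nothing says for these libraries which came from separate cultures, so p-values measure the spread between libraries, which may be technical. The genes described are those that moved the same way with all 3 hairpins, taken from the 13784 of 26475 genes with enough counts to be tested.

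PIP4K2B is a lipid kinase that adds a phosphate to phosphatidylinositol 5-phosphate (PtdIns5P) and so makes PtdIns(4,5)P2. It is the isoform of its family best known for a pool in the nucleus, where PtdIns5P binds proteins that read and modify chromatin. A hairpin is cut in the cell to a small RNA that guides the breakdown of the matching mRNA, and hairpins against a single mRNA share that target while their sequences differ.

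Total counts were 22560075 to 24020796 in Control and 19217336 to 22420164 in sh_PIP4K2B. Levels are given in CPM, the usual depth-scaled read counts with TMM factors, which are not corrected for length and so compare libraries and not genes. A log2 difference of a hairpin is log2(CPM + 0.1) in its library minus log2(mean Control CPM + 0.1), a scale that understates the change of low genes. The median SD of log2 CPM was 0.36 in sh_PIP4K2B and 0.08 in Control. Histone genes of the replication-dependent type, whose mRNAs lack a poly(A) tail, took 0.0158% to 0.0169% of counts in Control and 0.0365%, 0.0344% and 0.0209% with hairpins #1, #2 and #3. RNAs such as RN7SK that also lack this tail summed to 28.0 to 39.1 CPM in Control and to 55.1, 60.3 and 94.4 CPM with hairpins #1, #2 and #3. Of 9 markers of the retinal pigment epithelium, MITF (26.2 to 37.5 CPM) and OTX2 (9.8 to 18.2 CPM) were present, and the other 7 were below 1 CPM in each library, with RLBP1 and TTR at 0 throughout. KRT8 was at 995 to 1080 CPM in Control and 391 to 674 CPM in sh_PIP4K2B. KRT18 was at 835 to 892 CPM in Control against 354 to 533 CPM, and KRT7 at 11.9 to 12.2 against 6.19 to 9.41 CPM. VIM was at 8200 to 8220 CPM in Control and 4350 to 7300 CPM in sh_PIP4K2B. The other mesenchymal markers did not move together. COL1A1 was at 122 to 129 CPM in Control and 187 to 360 CPM in sh_PIP4K2B, and CDH2 at 390 to 396 and 390 to 555 CPM. PDGFRB was at 26.2 to 26.8 CPM in Control and 39.1, 16.7 and 99.5 CPM with the hairpins. FN1 was at 25600 to 26900 CPM against 10600, 35500 and 23100 CPM. COL1A2 was at 0.541 to 0.887 CPM against 0.198, 0.357 and 0.624 CPM. The epithelial CDH1, EPCAM and CLDN7 were at 0.104 CPM or less. These marker levels are without TMM scaling.

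The targeted transcript was lowered by each hairpin. PIP4K2B (chr17:38765691-38800126, minus strand, GENCODE v44 on GRCh38) was at 123, 124 and 120 CPM in Control and at 48.4, 40.9 and 36.6 CPM with hairpins #1, #2 and #3, so no hairpin library came near a Control library. The paralogue PIP4K2A was at 54.0, 53.9 and 58.3 CPM in Control and at 24.5, 46.7 and 80.3 CPM with the hairpins. PIP4K2C, the isoform of low activity, was at 68.2, 62.8 and 60.5 CPM in Control against 77.3, 64.6 and 37.9 CPM. The paralogues thus lay on both sides of Control and in opposite order over the hairpins, and neither passed the test (adjusted p = 0.81 and 0.80, edgeR).

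At an adjusted p below 0.01, the quasi-likelihood test of edgeR, adjusted by Benjamini and Hochberg, called 763 genes, which is 5.54% of those tested. Of these 381 (2.76%) rose and 382 (2.77%) fell in sh_PIP4K2B. In all 763 the 3 hairpin libraries lay beyond the 3 Control libraries. Lack of overlap alone was far more common, with 2395 genes higher (17.4%) and 2306 genes lower (16.7%) over all genes tested. A difference of at least 2-fold with each hairpin was rarer, at 120 genes higher (0.871%) and 45 lower (0.326%), of which 95 and 32 were also called. Only 17 called genes were at least 4-fold higher with every hairpin, and the 2 that were at least 4-fold lower were IGFBP3 and PADI1. Among the genes that rose, the median log2 difference was 1.04, 0.89 and 0.96 with hairpins #1, #2 and #3, and among those that fell it was -0.92, -0.80 and -0.90. Hairpin #2 gave the smallest of the 3 differences in 189 of the 381 and 191 of the 382. Agreement between hairpins varied by gene, with a range over the 3 of at most 0.25 log2 units in 195 called genes and of more than 1 unit in 59.

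These calls rest on a spread that Control, sh_PIP4K2B and Soft share in the fit. With the 6 libraries alone edgeR called 5 genes, all higher (BBC3, BMF, BTG2, CYP1A1 and DDIT4), where 763 were called before. It called 122, 66 and 161 genes without Control replicate 1, 2 and 3, and 1660, 2013 and 1770 without the library of hairpin #1, #2 and #3. PIP4K2B itself had an adjusted p of 0.012 (edgeR) in the fit of the 6 libraries. In what follows, a gene is said to keep its call only where it passed without each Control library in turn. Apart from the 5 genes above, none of those named passed in the fit of the 6 libraries. In limma-voom, with a weight per condition, 34.5% of the 763 calls were kept, with 14 of the 15 highest and 7 of the 15 lowest genes named. Of the genes said below to keep their call, BCL2L11, IGFBP2, PIF1 and CHAF1B were lost in that fit.

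**Figure D1:**
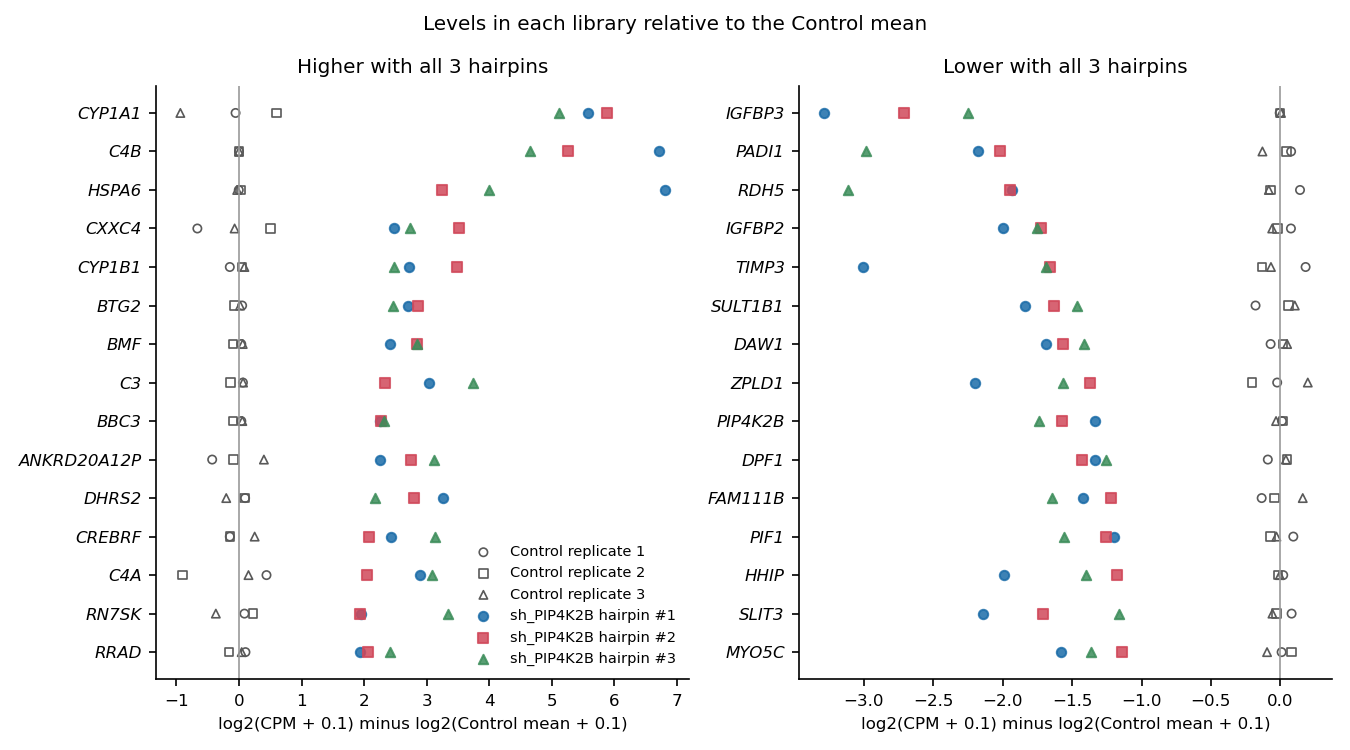
Each row is 1 gene and each point 1 library, placed by its log2 difference from the Control mean (x axis); open symbols are the 3 Control libraries and filled symbols the 3 hairpins. The panels hold the 15 genes highest and the 15 lowest with every hairpin, ranked by the smallest of the 3 differences. The hairpin libraries lie clear of the Control libraries in each row, as the rule that chose the genes requires.

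Genes of cell division fell together with all 3 hairpins. Of 53 tested genes of mitosis, which build the spindle and kinetochore and divide the cell, 40 fell (75.5%, against 2.77% of all genes). None rose, and in all 53 each hairpin library was below each Control library (against 16.7% of all genes). The median log2 differences were -0.97, -0.72 and -0.997 with hairpins #1, #2 and #3, where those over all genes were 0.01, 0.02 and 0.02. Of 42 genes of DNA replication 28 fell (66.7%) and none rose, 39 did not overlap, and the medians were -0.76, -0.67 and -0.79. Without Control replicate 1, 2 and 3, the genes called lower numbered 15, 6 and 14 of the mitosis list and 11, 6 and 11 of the replication list. In bulk RNA, fewer cells in a phase of the cycle and less RNA per cell cannot be told apart.

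At least 2-fold lower with hairpins #1, #2 and #3 were 24, 3 and 26 of the 53 mitosis genes. Of the 42 replication genes they were 12, 6 and 12, so hairpin #2 moved the fewest. The genes named below were ranked by the smallest of the 3 hairpin differences, a rule that favours agreement between hairpins. In those of mitosis the hairpins gave close values. MYBL2, a transcription factor of the G2 and M phase programme, was at 83.8, 79.0 and 80.7 CPM in Control and at 38.3, 35.2 and 34.6 CPM with hairpins #1, #2 and #3. ANLN, the actin-binding scaffold of the cleavage furrow, was at 298, 298 and 304 CPM in Control and at 150, 144 and 146 CPM. Both were far below Control with little spread on either side, with log2 fold changes of -1.17 (SE 0.10, adjusted p = 0.00042) and -1.03 (SE 0.09, adjusted p = 0.00050, edgeR). CENPU, a kinetochore subunit, was at 65.8, 66.1 and 70.5 CPM against 32.0, 32.0 and 34.6 CPM. NCAPG, a subunit of condensin, which compacts chromosomes, was at 83.3, 84.7 and 93.2 CPM against 44.5, 43.9 and 38.0 CPM. The groups stayed apart in both genes, and of the 4 named here only NCAPG lost its call, without Control replicate 2.

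CDC6, which loads the replicative helicase onto origins, was at 86.9, 88.0 and 89.0 CPM in Control and at 38.7, 35.2 and 42.1 CPM with the hairpins. GINS2, a subunit of that helicase once active, was at 29.9, 31.7 and 29.3 CPM against 13.5, 14.0 and 14.7 CPM. The histone chaperone subunit CHAF1B, which helps to place nucleosomes on new DNA, was at 27.2, 29.3 and 27.7 CPM against 13.1, 13.5 and 13.2 CPM. In these 3 genes the hairpins differed from each other by less than 0.26 log2 units and each kept its call (log2 fold changes -1.19, -1.10 and -1.08, adjusted p = 0.00047, 0.00052 and 0.00058, edgeR). CDC45, a further part of the helicase, fell by 1.13 on the log2 scale (adjusted p = 0.0011, edgeR) and was lost without Control replicate 2.

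Of 28 cyclins, cyclin-dependent kinases, their inhibitors and E2F factors, 8 fell and 1 rose (32.1% called, against 5.54% of all genes). CCNE2, the cyclin E2 of the G1 to S transition, was at 21.6, 27.7 and 28.6 CPM in Control and at 13.4, 13.6 and 13.2 CPM with the hairpins. E2F1, E2F2 and the pocket protein gene RBL1, which act on the same transition, fell by 0.92, 1.12 and 0.89 on the log2 scale (adjusted p = 0.0016, 0.0028 and 0.0015, edgeR). None of these 4 kept its call. The member that rose was CDK6, a kinase of G1 (0.67, adjusted p = 0.0073, edgeR), named after its value was seen. CDK6 did not keep its call either. CDKN1A, the p21 inhibitor and a p53 target, was at 777, 773 and 744 CPM in Control and at 5866, 3888 and 1118 CPM with hairpins #1, #2 and #3. It was thus above Control with each of them but by 2.94, 2.35 and 0.55 log2 units, and it did not pass (adjusted p = 0.012, edgeR).

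The 3 lists held 123 tested genes and 76 of the 382 genes that fell, which leaves 306 outside them. A set of 30 genes of homologous recombination and the Fanconi anaemia pathway, which repair broken and crosslinked DNA, was picked after values were seen. Of these 17 fell (56.7%, against 2.77% of all genes) and none rose, with medians of -0.71, -0.71 and -0.75 with the 3 hairpins. EXO1, a nuclease that resects DNA ends, fell by 1.19, 0.91 and 1.11, and BRCA1, which acts in recombination, by 0.72, 0.93 and 0.94 log2 units with hairpins #1, #2 and #3. Both lost their calls without Control replicate 2. FAM111B, a nuclear protease gene linked to the S phase, was at 60.9, 64.9 and 74.8 CPM in Control and at 24.95, 28.6 and 21.4 CPM, and PIF1, a DNA helicase gene, was at 8.61, 7.68 and 7.91 CPM against 3.45, 3.32 and 2.67 CPM. Both kept their call (adjusted p = 0.00068 and 0.00097, edgeR).

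Promoters of the genes that fell held cell cycle elements more often than those of other genes. The window searched ran from 250 bases before to 49 after the start of the canonical transcript in GRCh38, on both strands, and could be read for 376 of the 381 genes that rose, 381 of the 382 that fell and 13435 of all genes tested. TTTGAA, the core of the CHR element, was in 25.5% of the windows of genes that fell, 7.71% of those that rose and 9.39% of all. CCAAT, the box bound by NF-Y, was in 50.1%, 40.7% and 35.8%. The E2F letters GGCGGGAA or GGCGCGAA were in 14.2%, 4.26% and 6.81%. Mitosis and replication genes differed in these letters, with TTTGAA in 75.5% of the mitosis and 2.38% of the replication windows, and the E2F letters in 5.66% and 40.5%. Both TTTGAA and CCAAT were in 17.1% of the windows of genes that fell and 4.0% of all. The lists enter these shares, so the mitosis and replication genes contribute to those of all genes that fell. A match of letters is a description and does not show that a factor binds there.

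For 3 genes that fell with each hairpin the RefSeq promoters, from 250 bases before to 50 after the gene's start and read 5′ to 3′ on the gene's strand (GRCh38.p14), are shown because they carry these letters in different combinations. Capitals mark TTTGAA, the E2F letters, and the NF-Y box on either strand. PIF1 (chr15:64825598-64825897, minus strand) has TTTGAA downstream of 2 CCAAT boxes, GINS2 (chr16:85688905-85689204, minus strand) has a CCAAT box and E2F letters, and NCAPG (chr4:17810729-17811028, plus strand) has TTTGAA alone.
PIF1: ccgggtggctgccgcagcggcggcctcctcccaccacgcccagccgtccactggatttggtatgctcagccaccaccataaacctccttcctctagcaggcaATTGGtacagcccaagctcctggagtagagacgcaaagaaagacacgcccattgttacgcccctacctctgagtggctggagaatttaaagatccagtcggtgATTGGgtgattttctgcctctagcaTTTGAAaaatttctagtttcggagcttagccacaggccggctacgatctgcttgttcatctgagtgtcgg
GINS2: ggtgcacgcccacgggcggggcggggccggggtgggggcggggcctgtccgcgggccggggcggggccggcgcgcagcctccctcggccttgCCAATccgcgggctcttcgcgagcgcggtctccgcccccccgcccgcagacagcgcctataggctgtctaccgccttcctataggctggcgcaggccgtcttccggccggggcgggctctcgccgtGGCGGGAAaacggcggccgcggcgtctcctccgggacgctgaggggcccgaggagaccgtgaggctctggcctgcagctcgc
NCAPG: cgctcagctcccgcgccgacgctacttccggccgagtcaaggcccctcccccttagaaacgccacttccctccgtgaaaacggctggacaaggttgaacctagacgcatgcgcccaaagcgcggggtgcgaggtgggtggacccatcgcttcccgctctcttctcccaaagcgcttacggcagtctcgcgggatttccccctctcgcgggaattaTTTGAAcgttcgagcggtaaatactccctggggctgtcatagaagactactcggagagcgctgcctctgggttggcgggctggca

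Among genes outside the cell cycle lists, several insulin-like growth factor binding proteins fell. IGFBP3 (chr7:45912245-45921874, minus strand), which binds insulin-like growth factors outside the cell, was at 2349, 2356 and 2364 CPM in Control and at 241, 360 and 494 CPM with hairpins #1, #2 and #3. IGFBP2, of the same family, was at 10.8, 10.1 and 9.83 CPM against 2.49, 3.03 and 2.97 CPM. IGFBP5 was at 310, 305 and 292 CPM against 76.1, 170 and 142 CPM. Every hairpin library was lower than every Control library in the 3 genes, and IGFBP3 and IGFBP2 kept their call (log2 fold changes -2.69 and -1.85, SE 0.23 and 0.14, adjusted p = 0.00050 and 0.00038, edgeR). IGFBP5 (-1.23, SE 0.24, adjusted p = 0.0096, edgeR) lost its call without any 1 of the Control libraries and without hairpin #3. The only gene of the IGF axis that rose was IRS2, a docking protein of the insulin receptor (1.19, adjusted p = 0.0014, edgeR). Thus 1 of 18 rose and 3 fell (22.2% called, against 5.54% of all genes).

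HHIP, a decoy receptor for Hedgehog ligands, was at 182, 177 and 179 CPM in Control and at 45.1, 79.2 and 67.9 CPM with the hairpins. SLIT3, a secreted guidance cue, was at 127, 118 and 115 CPM against 27.1, 36.6 and 53.6 CPM. TIMP3, an inhibitor of matrix metalloproteinases, was at 8.38, 6.71 and 7.03 CPM against 0.829, 2.26 and 2.22 CPM. Hairpin #1 gave the lowest level in each of these 3 genes, and none of them kept its call (adjusted p = 0.0014, 0.0016 and 0.0038, edgeR). HHIP and SLIT3 were lost without Control replicate 1 or 2, and TIMP3 without any 1 of the 3.

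PADI1, an enzyme that turns arginine in proteins into citrulline, was at 6.52, 6.36 and 5.64 CPM in Control and at 1.29, 1.45 and 0.692 CPM with the hairpins. RDH5, a retinol dehydrogenase of the visual cycle, was at 22.1, 19.05 and 18.9 CPM against 5.16, 5.11 and 2.22 CPM, and part of its transcript sequence also lies in another annotated gene. Both were lower with all 3 hairpins (adjusted p = 0.0011 and 0.0012, edgeR) and both were lost without Control replicate 2. SULT1B1, a sulfotransferase, fell by 1.71 and ZPLD1 by 1.73 on the log2 scale (adjusted p = 0.0025 and 0.0024, edgeR), and neither passed without any 1 of the Control libraries. DAW1, an assembly factor of ciliary dynein arms, kept its call at 22.4, 23.9 and 24.4 CPM in Control against 7.23, 7.90 and 8.80 CPM (adjusted p = 0.00050, edgeR). DPF1, a subunit of a neuronal chromatin remodelling complex, and MYO5C, a myosin that moves vesicles, fell by 1.36 and 1.37 (adjusted p = 0.00087 and 0.00097, edgeR) and were lost without Control replicate 2.

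Genes of the p53 pathway and of cell death were prominent among those that rose with all hairpins. Of 32 tested p53 targets 12 rose (37.5%, against 2.76% of all genes) and none fell. Their medians were 1.08, 1.17 and 0.53 with hairpins #1, #2 and #3. BTG2 (chr1:203305491-203309602, plus strand), an antiproliferative p53 target, was at 13.4, 12.3 and 13.1 CPM in Control and at 84.6, 94.5 and 71.5 CPM with the hairpins. BBC3 (chr19:47220822-47232766, minus strand), which encodes the BH3-only death protein PUMA, was at 7.17, 6.54 and 7.25 CPM against 33.7, 34.1 and 35.1 CPM. For BBC3 the hairpins differed by 0.06 log2 units at most around a rise of 2.30 (SE 0.10, adjusted p = 1.8e-05), and BTG2 rose by 2.69 (SE 0.13, adjusted p = 1.8e-05, edgeR). These 2 genes kept their call in every alternative, the fit of the 6 libraries included.

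SESN1 and SESN2 encode sestrins, stress proteins that restrain mTORC1. SESN1 was at 14.99, 16.5 and 15.7 CPM in Control and at 72.0, 93.4 and 40.3 CPM with hairpins #1, #2 and #3, while SESN2 was at 28.9, 28.6 and 25.4 CPM against 65.2, 114 and 212 CPM. The order of the hairpins was thus not the same in the 2 sestrins (log2 fold changes 2.12 and 2.24, adjusted p = 0.0014 and 0.0046, edgeR), and neither kept its call. MDM2, the ubiquitin ligase that degrades p53, was named after its value was seen and rose by 1.28, 0.99 and 0.88 log2 units (adjusted p = 0.0012, edgeR), with its call lost without Control replicate 1 or 2. The whole list called 6, 4 and 7 genes without Control replicate 1, 2 and 3.

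Among 13 tested genes of the BCL2 family, which set the threshold of the mitochondrial death pathway, 3 rose and 1 fell. The share called was 30.8%, against 5.54% of all genes. BMF, a BH3-only protein held at the cytoskeleton, was at 5.03, 4.56 and 5.11 CPM in Control and at 26.7, 36.0 and 35.8 CPM with the hairpins (log2 fold change 2.74, SE 0.14, adjusted p = 2.8e-05, edgeR). BCL2L11, which encodes the BH3-only protein BIM, was at 3.49, 4.35 and 4.68 CPM against 11.1, 10.4 and 10.3 CPM (1.35, adjusted p = 0.00068, edgeR). The risers of this family were thus all BH3-only genes, BBC3 included. All 3 kept their call, though BCL2L11 was lost in limma-voom with a weight per condition. The member that fell was BCL2L2, which encodes the survival protein BCL-w (-0.80, adjusted p = 0.0094, edgeR), and its call was lost when any 1 of the Control libraries was left out, and also without hairpin #2 or #3.

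FOXO factors act when insulin signalling is low. Over 24 of their targets the medians were 0.17, 0.41 and 0.92 with hairpins #1, #2 and #3. Of the 24, 4 rose (16.7%, against 2.76% of all genes) and none fell. Besides SESN1 and BCL2L11 these were IRS2, at 35.3, 35.5 and 35.4 CPM in Control against 65.9, 77.0 and 100 CPM, and RICTOR, a subunit of mTORC2 (0.79, adjusted p = 0.0046, edgeR). BCL2L11 kept its call and the other 3 did not. In the list of phosphoinositide enzymes 5.66% were called, near the 5.54% of all genes tested. There 2 of 53 fell, the targeted PIP4K2B being 1 of the 2. The other, PLCE1, a phospholipase C, was at 62.7, 57.2 and 54.7 CPM in Control against 23.5, 30.2 and 30.2 CPM. No hairpin library overlapped Control, and the call was lost without Control replicate 1 or 2 (adjusted p = 0.0012, edgeR).

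**Figure D2:**
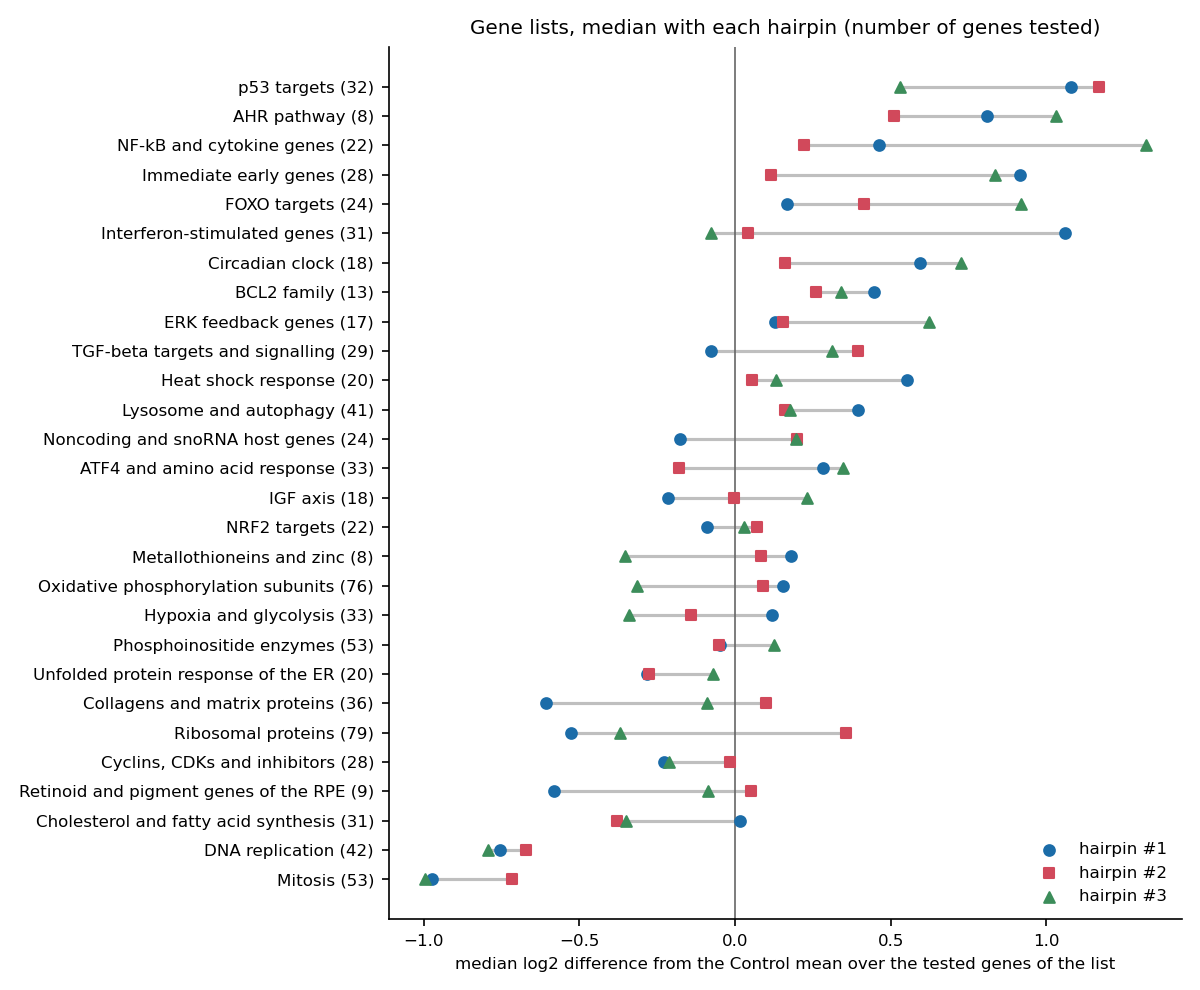
The x axis gives the median log2 difference from the Control mean over the tested genes of each list, the points are the 3 hairpins and the grey line spans them; numbers of tested genes stand in brackets. DNA replication and mitosis lie low with all hairpins, p53 targets high with all, and lists such as interferon-stimulated genes and ribosomal proteins are spread to both sides of 0.

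Genes of the response to foreign chemicals were among those that rose. The aryl hydrocarbon receptor (AHR) is a ligand-bound transcription factor that switches on CYP1 enzymes. Of 8 tested genes of the AHR pathway 4 rose, where 2.76% of all genes rose, and none fell. CYP1A1 was at 0.326, 0.571 and 0.131 CPM in Control and at 21.0, 25.9 and 15.3 CPM with hairpins #1, #2 and #3. CYP1B1 was at 21.7, 24.8 and 25.5 CPM against 159, 270 and 134 CPM. Both were highest with hairpin #2 and far from Control with each, with log2 fold changes of 5.89 (SE 0.39, adjusted p = 0.00014) and 2.97 (SE 0.24, adjusted p = 0.00042, edgeR), and both kept their call. TIPARP, an AHR target that feeds back on the receptor, rose by 0.99, 0.69 and 1.33 log2 units, and AHR itself by 0.62, 1.06 and 1.20 (adjusted p = 0.0028 each, edgeR). Neither of the latter kept its call, and 37.3% of the 75-base stretches of AHR lie in a second annotated gene.

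The letters GCGTG, the core of the element that AHR binds, were in 51.6% of the promoter windows of genes that rose, 52.0% of those that fell and 51.7% of all genes, so they did not set the groups apart. The heat shock element, taken as 3 alternating blocks of GAA and TTC with 2 bases between blocks, was in 0.532% of the windows of genes that rose and 0.328% of all. The promoters of CYP1A1 (chr15:74725479-74725778, minus strand) and HSPA6 (chr1:161524290-161524589, plus strand) are shown in the same way as examples of an AHR target and a heat shock gene that rose with each hairpin. Capitals mark GCGTG on either strand in CYP1A1, and in HSPA6 the heat shock element, TGAGTCA (AP-1) and the E2F letters.
CYP1A1: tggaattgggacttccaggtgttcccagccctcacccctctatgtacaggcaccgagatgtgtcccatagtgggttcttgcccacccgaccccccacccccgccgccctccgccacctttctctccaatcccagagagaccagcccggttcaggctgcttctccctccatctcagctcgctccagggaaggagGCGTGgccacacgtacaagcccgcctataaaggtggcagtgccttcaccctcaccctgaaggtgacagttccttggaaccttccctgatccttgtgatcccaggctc
HSPA6: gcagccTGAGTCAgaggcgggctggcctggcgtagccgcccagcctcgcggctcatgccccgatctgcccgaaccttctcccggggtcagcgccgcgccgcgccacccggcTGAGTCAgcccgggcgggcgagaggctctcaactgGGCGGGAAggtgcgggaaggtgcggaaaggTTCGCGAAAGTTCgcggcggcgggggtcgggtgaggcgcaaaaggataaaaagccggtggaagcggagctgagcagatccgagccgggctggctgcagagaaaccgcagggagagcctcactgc

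Stress genes rose in part. Of 20 heat shock genes, which encode chaperones, 4 rose, where 2.76% of all genes rose, and none fell. The medians were 0.55, 0.05 and 0.13 with hairpins #1, #2 and #3. HSPA6, an HSP70 gene with low basal expression, was at 1.02, 1.05 and 1.00 CPM in Control and at 126, 10.5 and 17.9 CPM with hairpins #1, #2 and #3. HSPA1A, a further HSP70 gene, was at 98.8, 98.6 and 89.7 CPM against 1046, 470 and 349 CPM. Hairpin #1 was highest in both, as in HSPA4L (1.84, 1.24 and 1.08 log2 units) and HSPH1 (1.45, 0.86 and 0.78), which encode HSP110 proteins. The adjusted p ran from 0.0017 for HSPA1A to 0.0053 for HSPA6 (edgeR), and none of the 4 passed without any 1 of the Control libraries. Shared sequence limits HSPA1A, with 73.8% of its 75-base stretches mostly in HSPA1B, and HSPA6, with 35.3% in HSPA7.

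Of 33 genes of the ATF4 programme, which answers a lack of amino acids and other stress, 4 rose and 1 fell. The share called was 15.2%, against 5.54% of all genes. DDIT4, an mTORC1 inhibitor, was at 12.7, 11.2 and 11.7 CPM in Control and at 48.5, 52.5 and 41.0 CPM (log2 fold change 1.99, SE 0.12, adjusted p = 8.0e-05, edgeR), and kept its call in every alternative. DDIT3, which encodes CHOP, was at 8.85, 9.70 and 9.83 CPM against 55.8, 19.6 and 56.4 CPM, and ATF3 at 10.8, 11.5 and 9.26 CPM against 64.7, 19.03 and 42.3 CPM. Hairpin #2 was lowest of the 3 in DDIT3 and ATF3, though still above Control, and neither they nor SESN2 kept their call; ATF3 also failed without hairpin #1 or #3. SLC7A5, an amino acid transporter, was the member that fell, by 0.84, 1.36 and 0.88 log2 units (adjusted p = 0.0041, edgeR). It is named after its value was seen and did not keep its call. Genes of the unfolded protein response of the endoplasmic reticulum (ER) had few calls, with 1 of 20 higher (SYVN1, 0.62) and 1 lower (CRELD2, -0.80). Over all genes 2.76% rose and 2.77% fell. Neither SYVN1 nor CRELD2 passed without any 1 of the Control libraries. In 7 of the 20 each hairpin library was below each Control library (against 16.7% of all genes), and in 2 each was above (against 17.4%). The list medians were -0.28, -0.28 and -0.07 with hairpins #1, #2 and #3. Of 22 NRF2 targets only FTH1, the ferritin heavy chain, passed (0.60, adjusted p = 0.0094, edgeR), a share of 4.55% against 5.54% of all genes, with 31.5% of its 75-base stretches in pseudogenes and a call lost without any 1 of the Control libraries.

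Immediate early genes are induced within minutes by growth factors or stress. Of 28 tested 7 rose, where 2.76% of all genes rose, and none fell. The medians were 0.92, 0.12 and 0.84 with hairpins #1, #2 and #3. NR4A3, an orphan nuclear receptor, was at 0.559, 1.01 and 0.786 CPM in Control and at 7.69, 3.03 and 4.84 CPM, and its relative NR4A2 at 1.30, 1.49 and 1.57 CPM against 4.14, 3.47 and 4.75 CPM. JUND, an AP-1 subunit, was at 67.5, 63.0 and 63.2 CPM against 268, 175 and 119 CPM. The groups did not overlap, but NR4A3 and JUND (adjusted p = 0.0019 and 0.0039, edgeR) lost their calls without any 1 of the Control libraries and NR4A2 (adjusted p = 0.00097, edgeR) without replicate 2. Feedback genes of the ERK pathway gave 1 riser of 17, SPRY2 (0.70), and 1 that fell, PHLDA2 (-0.86, adjusted p = 0.0035 and 0.0067, edgeR). The share called in this list was 11.8%, against 5.54% of all genes, and neither SPRY2 nor PHLDA2 kept its call.

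Genes of complement, the cascade of blood proteins that tags and lyses targets, were also among those that rose. This set of 14 tested genes was chosen after its values were seen. In it 5 rose (35.7%, against 2.76% of all genes) and none fell. C3, the central component, was at 4.14, 3.60 and 4.15 CPM in Control and at 33.3, 20.3 and 54.5 CPM with hairpins #1, #2 and #3 (log2 fold change 3.18, SE 0.32, adjusted p = 0.00069, edgeR). The protease gene C1R rose by 1.87, 1.6 and 1.22 log2 units and its partner C1S by 1.02, 1.52 and 0.88 (adjusted p = 0.00069 and 0.0025, edgeR). C4A was at 2.05, 0.746 and 1.66 CPM against 11.6, 6.45 and 13.3 CPM, and C4B, at 0 counts in each Control library, reached 10.4, 3.71 and 2.42 CPM. Taking 3 counts in each Control library as the floor, which is 0.14 CPM at most, C4B was at least 74.5-fold, 26.5-fold and 17.3-fold higher with the 3 hairpins. For C4A and C4B 91.0% of the 75-base stretches also lie in other genes, mostly in each other, so reads may be split between them, and for C1R 22.9% lie in C1RL. C3 and C1R kept their call, and C1S, C4A and C4B did not pass without any 1 of the Control libraries.

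MHC class I genes, which present peptides to T cells, were also picked after values were seen. Of 16 tested genes of class I and its peptide loading 7 rose (43.8%, against 2.76% of all genes) and none fell. HLA-B rose by 1.55, 1.36 and 1.31 and HLA-F by 1.67, 1.37 and 1.15 log2 units with hairpins #1, #2 and #3. HLA-C rose by 1.31, 0.96 and 0.72, the pseudogene HLA-H by 1.05, 0.84 and 1.15, B2M, the shared light chain, by 0.82, 0.70 and 0.92, and TAPBPL, a loading factor, by 0.785, 1.01 and 0.753. HLA-B kept its call (adjusted p = 0.00038, edgeR). HLA-F was lost without Control replicate 2, and HLA-C, HLA-H, B2M and TAPBPL without any 1 of the Control libraries. For HLA-H 17.5% of the 75-base stretches lie in other genes of the family. Chromosome 6, which holds the MHC, had 35 of 678 tested genes that rose (5.16%), the highest share of the chromosomes, with the other autosomes and X between 1.16% and 3.92%.

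The wider interferon response did not follow in all hairpins. Of 31 interferon-stimulated genes 3 rose (9.68%, against 2.76% of all genes) and none fell. The medians were 1.06, 0.04 and -0.08. With hairpin #1, 17 of the 31 were at least 2-fold above Control, as were 3 with hairpin #2 and 2 with hairpin #3. IRF1, a transcription factor of the MHC class I genes, was at 16.5, 17.6 and 17.4 CPM in Control against 35.9, 24.8 and 29.9 CPM. IFI6 rose by 1.90, 1.64 and 0.58 and IFI16, a DNA sensor, by 0.45, 0.48 and 0.69 log2 units (adjusted p = 0.0085 each, edgeR), and the 3 genes lost their calls without any 1 of the Control libraries, IFI6 also without hairpin #1 or #2. The median of the fitted values was 0.62 over the list and -0.05 without the library of hairpin #1. NF-kB and cytokine genes showed another order, with medians of 0.46, 0.22 and 1.32. Of 22 tested only IL1A rose, at 0.699, 0.878 and 1.14 CPM in Control against 2.39, 5.92 and 7.96 CPM (adjusted p = 0.0042, edgeR), without keeping its call, and this share (4.55%) is no higher than the 5.54% of all genes.

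**Figure D3:**
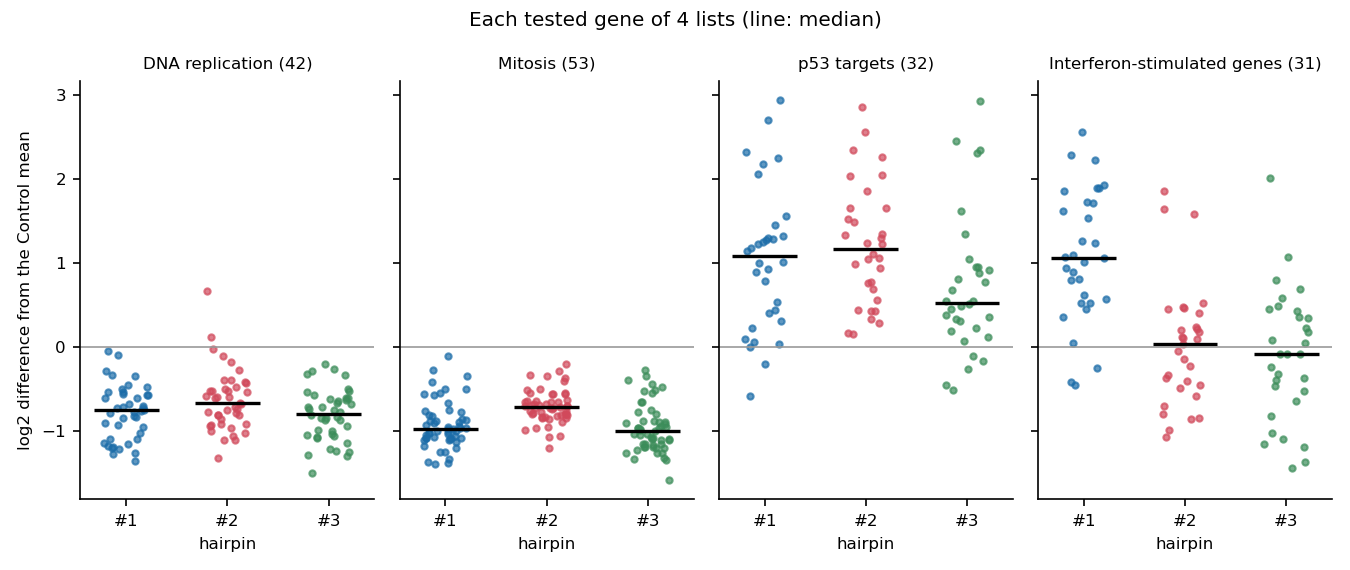
Each point is 1 tested gene of a list with 1 hairpin, the y axis is its log2 difference from the Control mean, and the black line is the median. All 53 mitosis genes lie below 0 with every hairpin, whereas interferon-stimulated genes have a median of 1.06 with hairpin #1 and near 0 with hairpins #2 and #3.

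Further genes that rose with all hairpins had scattered roles. CXXC4, an inhibitor of WNT signalling, was at 0.140, 0.439 and 0.262 CPM in Control and at 2.03, 4.24 and 2.42 CPM. DHRS2, a short-chain dehydrogenase, was at 0.885, 0.878 and 0.699 CPM against 8.75, 6.31 and 4.05 CPM, and RRAD, a small GTPase of the RGK group, at 2.28, 1.89 and 2.18 CPM against 8.38, 9.20 and 11.8 CPM. Of these 3 low genes RRAD kept its call, CXXC4 lost it without Control replicate 1 or 3 and DHRS2 without replicate 2 (adjusted p = 0.00050, 0.0015 and 0.00097, edgeR). CREBRF, a regulator of the factor CREB3, was at 3.49, 3.51 and 4.63 CPM against 21.4, 16.8 and 34.8 CPM and kept its call (adjusted p = 0.00069, edgeR). ANKRD20A12P, a pseudogene, was at 0.326, 0.439 and 0.655 CPM against 2.62, 3.76 and 4.84 CPM (adjusted p = 0.0018, edgeR). Its call was lost without Control replicate 1 or 2. RN7SK is a noncoding RNA without a poly(A) tail that holds the elongation factor P-TEFb inactive. It was at 5.08, 5.57 and 3.67 CPM against 18.6, 18.5 and 49.5 CPM (adjusted p = 0.0034, edgeR). It did not pass without any 1 of the Control libraries. The summed level of RNAs without the tail, given above, was higher in the same libraries, but that sum includes RN7SK itself and so partly repeats its rise. The part of this higher level in the value of RN7SK was not tested. All 75-base stretches of RN7SK have copies elsewhere.

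In the lists of metabolism, clock and growth factor signals only a few genes passed, and for lysosome and autophagy (4.88% called), hypoxia and glycolysis (6.06%) and cholesterol and fatty acid synthesis (3.23%) the share was near the 5.54% of all genes. Of 18 clock genes 2 rose (11.1%, against 2.76% of all genes), BHLHE41 and ARNTL, by 0.88 and 1.16 on the log2 scale. Of 29 genes of TGF-beta signalling 3 rose (10.3%), ID2, TGFBR1 and TGIF1, by 1.64, 0.95 and 1.03. ID2, an inhibitor of differentiation factors, was at 1.49, 2.50 and 2.32 CPM in Control and at 6.68, 7.85 and 5.19 CPM with the hairpins. Of 41 genes of lysosome and autophagy 2 rose, ULK1, the kinase that starts autophagy (0.93), and ATG14, which targets a lipid kinase to the forming membrane (1.08). KDM3A, a histone demethylase induced in hypoxia, was at 31.6, 32.6 and 34.0 CPM against 65.6, 57.3 and 66.9 CPM and was lost only without Control replicate 2 (adjusted p = 0.00097, edgeR). SLC2A3, a glucose transporter, rose by 0.95, 1.68 and 2.48 log2 units, and these were the 2 of 33 genes of hypoxia and glycolysis that rose, with none lower. ELOVL6, a fatty acid elongase, was the 1 of 31 genes of cholesterol and fatty acid synthesis that fell (-0.72). MT2A was the 1 of 8 genes of the metallothionein list that fell (-0.63, 12.5% called). OTX2, a transcription factor of the pigment epithelium, rose by 0.65 and with RDH5 made up the calls among 9 retinoid and pigment genes (22.2%). EPB41L4A-AS1 rose by 0.75 as the 1 of 24 noncoding genes (4.17%, near the 5.54% of all genes). Apart from KDM3A and RDH5, which passed without Control replicate 1 or 3, none of the genes named in this paragraph passed without any 1 of the Control libraries.

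Zinc finger genes rose more often than genes overall. Of 471 tested genes with a ZNF symbol, a group taken up after values were seen, 33 rose (7.01%, against 2.76% of all genes) and 2 fell, ZNF185 and ZNF589. Their medians were 0.47, 0.26 and 0.39 log2 units with hairpins #1, #2 and #3. The transcripts of the genes that rose were longer and lower in GC than those of the genes that fell, with median lengths of 4039 and 3157 nt and median GC of 45.5% and 50.7%, where all tested genes had 3287 nt and 48.4%.

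In other lists the hairpins went apart. Of 79 ribosomal protein genes 78 were below the Control mean with hairpin #1 and 72 with hairpin #3, while 77 were above it with hairpin #2. The medians were -0.53, 0.36 and -0.37 log2 units and no gene was called. Of 36 collagens and matrix proteins, which also had no call, 30 lay below Control with hairpin #1, and their summed level was 50885 to 52558 CPM in Control and 23930, 67221 and 45430 CPM with hairpins #1, #2 and #3. Subunits of oxidative phosphorylation had medians of 0.15, 0.09 and -0.32 over 76 genes with no call. A mean over the hairpins near 0 in these lists therefore stood for libraries that lay on both sides of Control.

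A count of genes by hairpin showed the same unevenness. At least 2-fold above the Control mean were 973, 534 and 1002 genes with hairpins #1, #2 and #3, and at least 2-fold below it 1327, 426 and 616. Genes that were 2-fold from Control with 1 hairpin while both others lay within 0.5 log2 units numbered 222 higher (1.61%) and 413 lower (3.0%) with hairpin #1. With hairpin #2 they numbered 46 (0.334%) and 71 (0.515%), and with hairpin #3 195 (1.41%) and 118 (0.856%). With 1 library per hairpin, these differences have no replicate check.

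**Figure D4:**
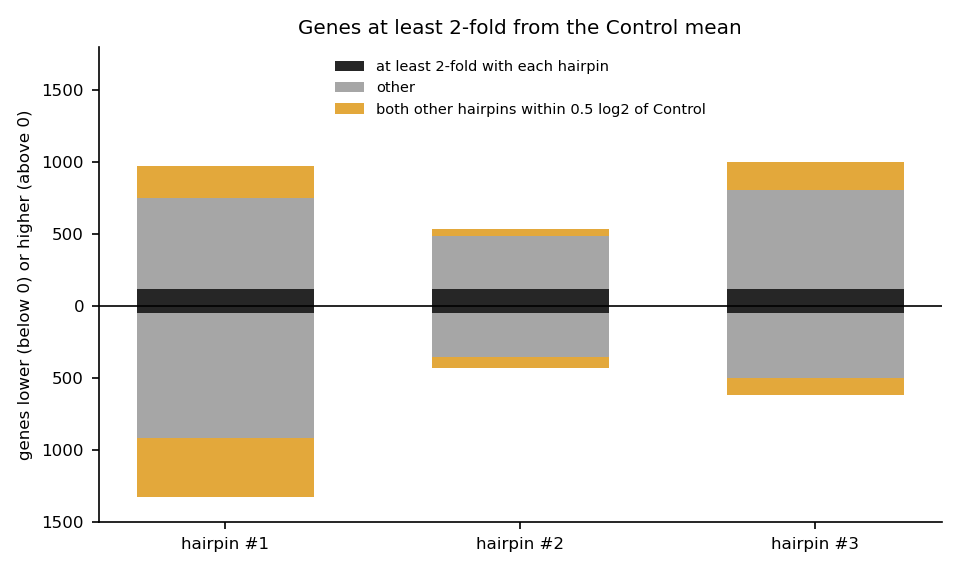
Bars count genes at least 2-fold above (upward) or below (downward) the Control mean with each hairpin; black marks the 120 higher and 45 lower genes that all 3 hairpins share, and orange those for which both other hairpins lay within 0.5 log2 units of Control. Hairpin #1 has the most genes below Control, 1327, and hairpin #2 the fewest in each direction.

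The genes that stood apart most with hairpin #1 included PARP10 and HELZ2, both induced by interferon, at 12.8 and 94.2 CPM against 2.81 ± 0.345 and 24.5 ± 2.02 CPM in Control (SD, n = 3). PARP10 with the other hairpins was at 2.41 and 2.97 CPM and HELZ2 at 21.4 and 25.95 CPM, which is within 0.22 log2 units of Control. RAPGEFL1 was at 12.2 CPM with hairpin #1 and at 2.36 and 2.77 CPM with the others, where Control was at 2.49 ± 0.304 CPM (SD, n = 3). ATP2B4, a calcium pump of the plasma membrane, was at 97.5 CPM with hairpin #1 and at 564 and 482 CPM with the others, where Control was at 520.0 ± 4.81 CPM (SD, n = 3). SHISA4 was at 5.76 CPM against 30.6 and 27.7 CPM, and LOC100129550 at 0.460 CPM against 2.89 and 2.97 CPM.

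With hairpin #2 the genes were fewer. CDKN2B, the p15 inhibitor of CDK4 and CDK6, was at 151 CPM with hairpin #2, and hairpins #1 and #3 gave 35.4 and 38.4 CPM beside 32.0 ± 2.45 CPM for Control (SD, n = 3). MAMDC2 was at 95.9 CPM against 15.1 and 23.2 CPM, and PLTP, a phospholipid transfer protein, at 121 CPM against 34.2 and 32.9 CPM. TWF1 and GMFB, both regulators of actin filaments, were at 48.3 and 31.4 CPM with hairpin #2, while TWF1 was at 199 and 160 CPM and GMFB at 98.4 and 104 CPM with the others. In Control GMFB ran from 61.7 to 109 CPM, a wide spread for this group. SLX1A-SULT1A3, a read-through gene whose sequence is wholly shared with its copies, had 0 counts with hairpin #2 and 9.76 and 7.61 CPM with the others, and its value is uncertain.

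Hairpin #3 had ICAM1, an adhesion receptor for leukocytes and NF-kB target, at 50.5 CPM, where hairpins #1 and #2 had 5.11 and 4.82 CPM and Control 4.49 ± 0.201 CPM (SD, n = 3). OLFM2 was at 7.71 CPM against 0.737 and 0.530 CPM, and HEY1, a Notch target, at 4.15 CPM against 0.414 and 0.626 CPM. MYL12B, a regulatory light chain of nonmuscle myosin, was at 109 CPM with hairpin #3 and at 603 and 515 CPM with the others, against 486 ± 2.91 CPM in Control (SD, n = 3). MRPS27, of the mitochondrial ribosome, was at 22.8 CPM against 111 and 84.8 CPM, and COL4A3, a basement membrane collagen, at 1.83 CPM against 6.63 and 11.4 CPM. Over the 3 groups, 18 genes were thus far from Control in a single hairpin library, as the rule that chose them requires. None of them passed the test of the hairpins together (edgeR, adjusted p from 0.089 to 0.96), which that rule makes likely.

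**Figure D5:**
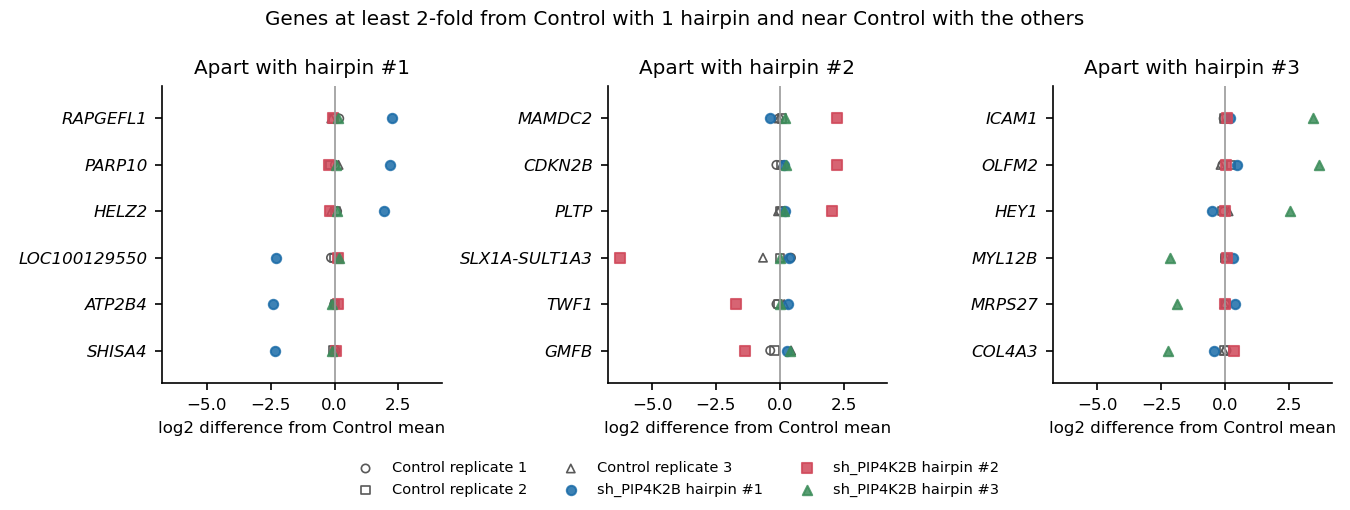
Points are libraries placed by their log2 difference from the Control mean (x axis) for 6 genes per hairpin; open symbols are Control and filled symbols the hairpins. By the choice of genes, only the hairpin named in the title of each panel lies far from 0, by up to 6.25 log2 units for SLX1A-SULT1A3.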

How the data were processed

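Stranded mRNA libraries of hTERT-RPE1 cells were sequenced as read pairs, and the authors aligned them to GRCh38 with STAR. Salmon is also named in the submitters' processing notes, with no role given, and the annotation is not given in the sources used here. The values the authors deposited are estimated counts per gene symbol, of which 12.3% were not whole, and these were rounded.

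All 9 libraries entered edgeR 4.0.16 (R 4.3.3) with TMM scaling, its default expression filter and the quasi-likelihood test of sh_PIP4K2B against Control, with Benjamini-Hochberg adjustment over all 13784 genes tested and a threshold of 0.01. The pseudocount for hairpin differences was 0.1 CPM. Named genes were PIP4K2B and its paralogues, the 15 highest and 15 lowest called genes by the smallest of the 3 hairpin differences with a mean of at least 50 counts (genes the study names left out), up to 4 called genes of each of 28 lists, 3 genes per hairpin and direction that stood apart in that hairpin alone, and the genes behind counts of 5 or fewer. Results for a few genes that these rules or the sets described would name are not reported here. The members and lists were chosen with earlier results of these data known. Alternatives were DESeq2 1.42.0, limma 3.58.1 (voom with a weight per condition), other scalings and filters, the 6 libraries alone, a replicate block and leaving out each library.

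Tested on simulated data for this comparison (13784 genes), edgeR recovered 39 of 100 genes changed 2-fold and 95 of 100 changed 4-fold, with 0 false calls. The simulation gave each gene the same spread in all groups. In the data the median SD of log2 CPM was 0.36 in sh_PIP4K2B and 0.08 in Control. The simulated 0 therefore does not measure false calls under unequal spread. The floor of 3 counts covers counting error only. SEs come from the edgeR fit and include its estimate of the spread between libraries. Shared sequence was measured as the share of 75-base stretches of the canonical transcript (GENCODE v44) that occur in another gene.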

Additional observations from a re-analysis of the deposited data

How the results depend on the processing

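No gene called in the comparison changed sign under any alternative, but the number called moved widely, and the cause was not tested beyond what each alternative leaves out. Against 763 genes (381 higher, 382 lower), DESeq2 called 2066 (1087 and 979, of which 1062 and 979 did not overlap) and a threshold of 0.05 called 2375 (1323 and 1052, of which 1296 and 1052 did not overlap). limma-voom with a weight per condition called 319 (162 and 157). With the replicate block 295 were called (135 and 160). Same-numbered libraries did not deviate together (r = -0.005, -0.004 and 0.010). Each deviation in sh_PIP4K2B also holds the difference between hairpins, so these values cannot show whether the numbers pair the libraries. The fit of the 6 libraries alone called 5, all higher, and 0 lower, where 1846 and 1431 genes had an unadjusted p below 0.05 in edgeR; PIP4K2B there was at -1.54 (adjusted p = 0.012, edgeR). In all of these fits except DESeq2 and the threshold of 0.05, every gene called was also without overlap.

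Leaving out 1 library gave 66 to 2013 called genes (31 to 1045 higher, 35 to 968 lower), few without a Control library and many without a hairpin library. Genes at least 2-fold from Control with each hairpin numbered 142 to 310 higher and 53 to 214 lower, most without a hairpin library, where fewer libraries had to pass. The lower count was 83 with no filter on low counts, and with a pseudocount of 1 CPM, chosen after seeing the data, the counts were 60 higher and 26 lower.

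Of the named genes that did not pass, 14 changed sign, each when a single library was left out. With 1 library out, log2 fold changes that turned without hairpin #1 ran for PIP4K2A from -0.64 to 0.19, PARP10 from -0.0699 to 1.49, HELZ2 from -0.0525 to 1.29, LOC100129550 from -0.66 to 0.15 and ATP2B4 from -0.85 to 0.006. Those that turned without hairpin #2 ran for MAMDC2 from -0.0623 to 1.57, SLX1A-SULT1A3 from -0.98 to 0.21, TWF1 from -0.61 to 0.18 and GMFB from -0.30 to 0.34, and those that turned without hairpin #3 for PIP4K2C from -0.32 to 0.15, HEY1 from -0.27 to 1.92, MYL12B from -0.64 to 0.20, MRPS27 from -0.66 to 0.20 and COL4A3 from -1.06 to 0.0184. GMFB was also at 0.25 without Control replicate 3 and at 0.10 with library size only. With 3 libraries a group and equal spread in the groups, edgeR recovered 39 of 100 simulated 2-fold changes, so many changes of that size can be missed.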

Other observations

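Of the 763 genes called, 140 belonged to any of the 28 lists and 623 to none, so most of what the hairpins shared lies outside them. All 3 hairpins were above the Control mean in 3289 genes and below it in 2989, and they lay on both sides of it in 7506. The genes that rose had lower levels in Control than those that fell, with medians of 14.4 and 48.7 CPM, against 22.6 CPM for all genes tested. By chromosome, genes that fell were most frequent on 15 (4.56%) and 20 (4.51%) and least on 6 (1.47%), and these shares were not tested.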
